A study of Mus musculus with 30 samples.

Results

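The effect of tauroursodeoxycholic acid (TUDCA) on the liver transcriptome was compared between mice undernourished in utero (UN) and mice normally nourished in utero (NN). The comparison rested on the 16 arrays of 22 weeks, out of 30 arrays in the series, with 4 livers in each of 4 groups. UN-TU livers came from offspring of calorie-restricted dams and received TUDCA, and UN-Veh livers came from the same kind of offspring and received vehicle. NN-TU and NN-Veh livers came from offspring of dams fed freely, with TUDCA or with vehicle. UN dams received 40% fewer calories in the later part of pregnancy. All 4 groups were male C57Bl/6NCr mice without any engineered allele, were fostered by NN dams, ate a high-fat diet (HFD) for 13 weeks from 9 weeks of age, and received TUDCA or vehicle by mouth for the last 5 of these weeks. The vehicle groups therefore also carried the HFD, and no lean group of 22 weeks was included.

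The quantity described here is the interaction, which is (UN-TU minus UN-Veh) minus (NN-TU minus NN-Veh) on the log2 scale. A positive interaction means that the TUDCA effect lay higher in UN than in NN, and a value of 0 means equal effects. TUDCA is the taurine conjugate of a hydrophilic bile acid and is used as a chemical chaperone that eases stress of the endoplasmic reticulum. Bile acids also act as signals in the liver, where they restrain their own synthesis from cholesterol and alter lipid and glucose metabolism. In steatosis, hepatocytes store triglyceride in lipid droplets, and proteins on the droplet surface set how large the droplets become.

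Each array gave 1 log2 signal per probe set, and array medians lay between 4.40 and 4.52. Hepatocyte genes were the brightest, with a mean log2 signal of 12.67 for Alb, the serum albumin gene. The arrays of NN-TU 21 and 22 stood apart from the other 14. Their signals had an SD over probe sets of 1.92 and 1.90, against 1.96 to 2.01 on the others, and housekeeping genes averaged 8.48 and 8.44 there, against 8.70 to 8.96 on the others. Values without these 2 arrays are therefore given beside the results they touch. The replicates are separate animals, but the litter of each animal is not given, so that p-values measure the spread between these livers and not between litters.

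No probe set passed a Benjamini-Hochberg adjusted p under 0.05 for the interaction in limma (0 of 25341, 0.0%). The smallest adjusted p was 0.0509, shared by the acute phase gene Orm3, by the microRNA gene Mir467e and by a probe set named for both Sptssa and Mir1892. An unadjusted p under 0.05 was found for 3009 probe sets (11.9%), of which 2014 were positive (7.95%) and 995 negative (3.93%). The TUDCA effect itself had an unadjusted p under 0.05 for 1258 probe sets higher (4.96%) and 1429 lower (5.64%) in UN-TU than in UN-Veh, and for 1062 higher (4.19%) and 2924 lower (11.5%) in NN-TU than in NN-Veh. Among the 3009, 67 (0.264%) differed by at least a fold of 2, with 39 positive (0.154%) and 28 negative (0.11%). The interactions named below are therefore ranked by size and unadjusted p, and none of them passed the adjustment in this fit.

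The counts moved when single livers were left out. Without NN-TU 19, 104 probe sets passed an adjusted p under 0.05 (80 positive, 24 negative), and 12 and 10 passed without UN-TU 29 or UN-TU 30. Without NN-TU 21 and 22, only 1 passed, and the split at an unadjusted p under 0.05 turned round to 1020 positive and 1290 negative. Repeated quantile normalization of the 16 arrays gave 1649 positive and 1591 negative, so that the excess of positive interactions was absent under both of these settings. The median interaction over 22180 genes was 0.04, and it was 0.00 under each of these settings.

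**Figure D1:**
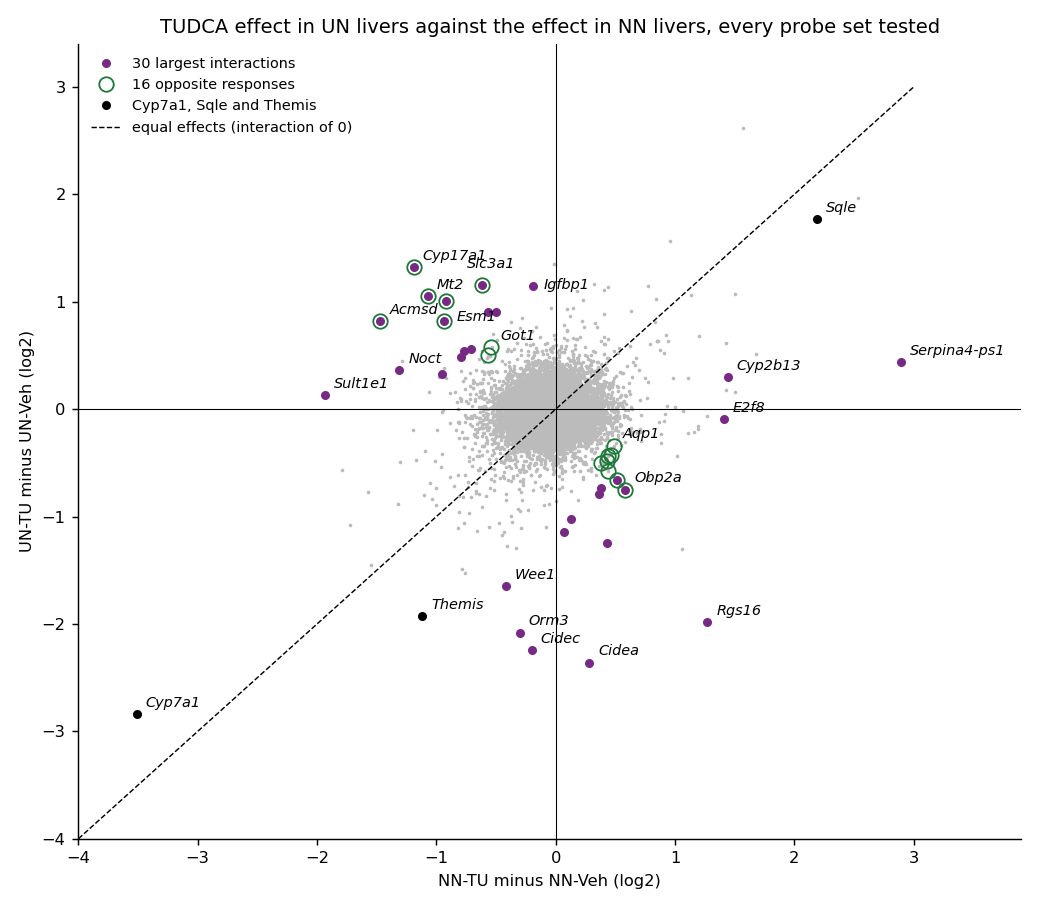
The TUDCA effect in UN livers (vertical, UN-TU minus UN-Veh, log2) is plotted against that in NN livers (horizontal, NN-TU minus NN-Veh, log2) for each of 25341 probe sets in grey. Filled purple points are the 30 largest interactions, green rings are 16 opposite responses, and Cyp7a1, Sqle and Themis (black) have effects of the same sign in both, with equal effects along the dashed line, whereas Cidea sits at -2.36 in UN and 0.28 in NN.

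The 67 probe sets past a fold of 2 fell into a few arrangements of the 4 groups, taken from which of the 4 pairwise differences (UN-TU against UN-Veh, NN-TU against NN-Veh, UN-Veh against NN-Veh, UN-TU against NN-TU) had an unadjusted p under 0.05. In 16 of them UN-Veh alone stood apart, in 9 NN-Veh alone, in 13 NN-TU alone and in 0 UN-TU alone. In 14 the 4 differences were all present and the responses crossed. The other 15 had a different combination. The order differed among all 3009 probe sets at an unadjusted p under 0.05 for the interaction, whatever their size. There NN-TU alone stood apart in 874, UN-TU alone in 357, UN-Veh alone in 312 and NN-Veh alone in 289. The responses crossed in 61, and 1116 had a different combination. These arrangements describe the chosen probe sets and were not tested further.

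Genes in which UN-Veh stood apart by these p-values included Rgs16, given with the clock genes, and the lipid droplet genes Cidea and Cidec, whose proteins join droplets into larger ones. For Rgs16 the groups overlapped, since UN-TU 29 and 30 and NN-TU 21 and 22 lay within the UN-Veh range of 8.09 to 10.07. Cidea had a log2 signal of 4.06, 4.68, 6.62 and 6.34 in UN-TU, and 8.01, 7.94, 8.04 and 7.17 in UN-Veh. It had 4.14, 4.08, 5.50 and 5.36 in NN-TU, and 4.13, 4.24, 4.65 and 4.95 in NN-Veh. Each UN-Veh liver lay above every other liver, and UN-TU 29 and 30 lay between UN-Veh and the rest. The TUDCA effect was -2.36 in UN (adjusted p = 0.0171, limma), the effect in NN was 0.28 (adjusted p = 0.812), and the interaction was -2.64 (SE 0.62, unadjusted p = 0.000366, adjusted p = 0.112). Cidec showed the same arrangement, with 4.94 to 7.93 in UN-TU, 8.79 to 9.18 in UN-Veh, 5.22 to 6.95 in NN-TU and 5.70 to 7.16 in NN-Veh. Its interaction was -2.04 (SE 0.66, unadjusted p = 0.00614). The interaction was -1.98 (unadjusted p = 0.0094) for Cidea and -1.44 (unadjusted p = 0.0749) for Cidec without NN-TU 21 and 22.

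**Figure D2:**
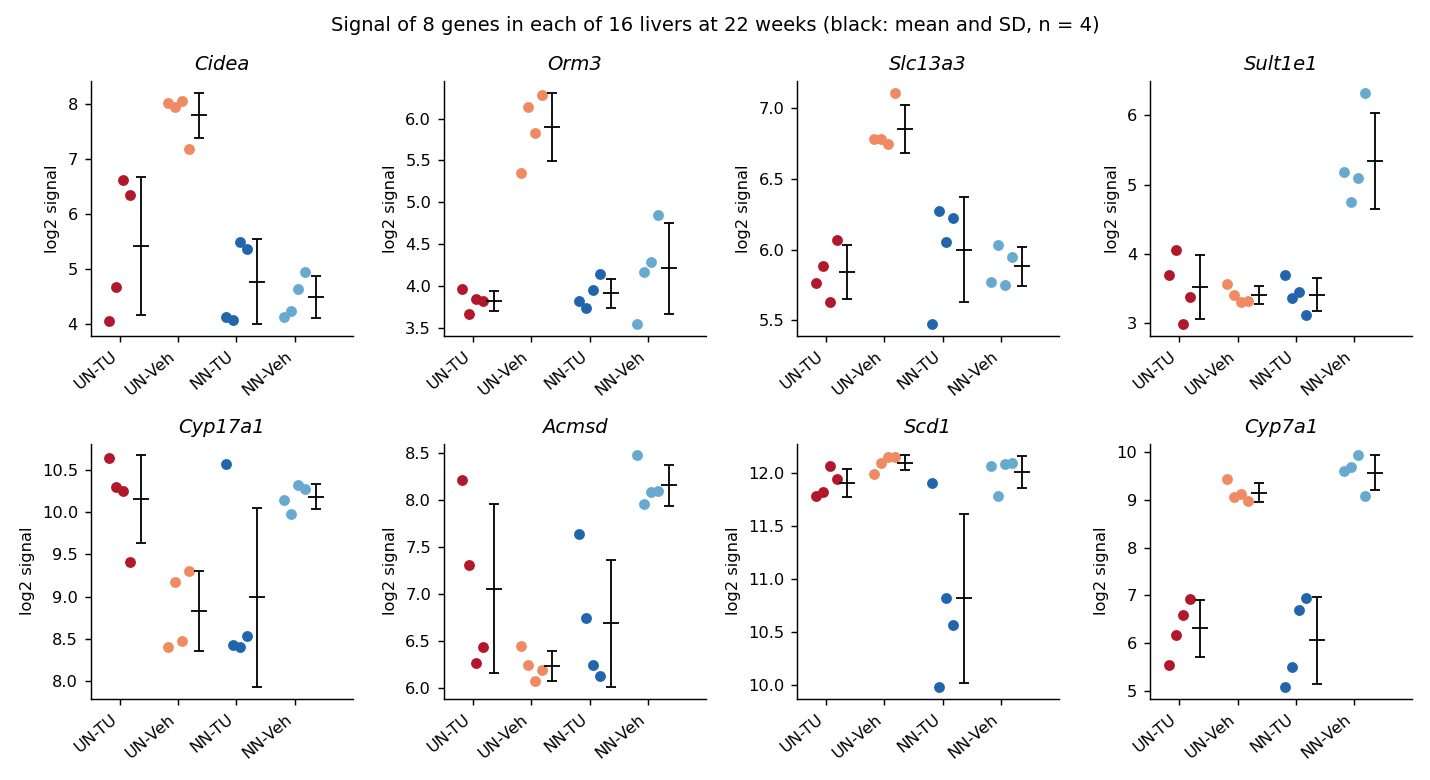
Log2 signals of 8 genes are shown for each of the 16 livers, in the order UN-TU, UN-Veh, NN-TU and NN-Veh, with the mean and SD of each group in black (n = 4). UN-Veh stands apart for Cidea, Orm3 and Slc13a3, NN-Veh for Sult1e1, and NN-TU for Scd1, in which NN-TU 19 remains at 11.91. Cyp17a1 and Acmsd differ in opposite directions, and Cyp7a1 is low in both TUDCA groups.

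Orm3, an orosomucoid of the acute phase response, had the second smallest unadjusted p of all probe sets, after Mir467e. Its log2 signal was 3.96, 3.66, 3.84 and 3.82 in UN-TU, 5.35, 6.14, 5.83 and 6.28 in UN-Veh, 3.82, 3.74, 3.95 and 4.14 in NN-TU, and 3.54, 4.17, 4.29 and 4.85 in NN-Veh. UN-Veh lay above every other liver without overlap, and the other 3 groups overlapped. The effect in UN was -2.08 (adjusted p = 3.67e-05), the effect in NN was -0.30 (adjusted p = 0.513), and the interaction was -1.78 (SE 0.29, unadjusted p = 5.93e-06). Its value lay between -1.99 and -1.55 when each array was left out in turn, and it was -1.65 without NN-TU 21 and 22. Orm2, another orosomucoid gene, had effects of -1.52 in UN and -0.76 in NN and an interaction of -0.77 (SE 0.43, unadjusted p = 0.0889).

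Slc13a3, a transporter of dicarboxylates such as succinate, had 5.76, 5.88, 5.63 and 6.07 in UN-TU, and 6.78, 6.78, 6.75 and 7.11 in UN-Veh. NN-TU had 5.47, 6.27, 6.05 and 6.22, and NN-Veh had 5.77, 6.03, 5.75 and 5.95. Again UN-Veh did not overlap with any other group. The interaction was -1.14 (SE 0.20, unadjusted p = 1.8e-05, adjusted p = 0.0534), and it stayed between -1.32 and -1.05 when each array was left out in turn. Wee1, a kinase that delays entry into mitosis and follows the liver clock, had an interaction of -1.22 (SE 0.37), with an effect of -1.65 in UN (adjusted p = 0.00657) and an effect of -0.42 in NN (adjusted p = 0.455). Gpc1, a heparan sulfate proteoglycan of the cell surface, had an interaction of -1.15 (SE 0.34) in its brighter probe set and -0.11 (SE 0.14) in its dimmer one. Rarres1, a gene that responds to retinoic acid, had -1.67 (SE 0.57), and -1.11 (unadjusted p = 0.0897) without NN-TU 21 and 22. Csrp3, best known as a LIM protein of striated muscle, had -1.11 (SE 0.33), and -0.77 (unadjusted p = 0.0462) without NN-TU 21 and 22.

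Across the lipid droplet list, 4 of 26 measured members had a negative interaction at an unadjusted p under 0.05 and 2 a positive one, against 3.78% negative and 7.87% positive of all 22180 genes. Fitm2, which helps to package fat into droplets, and Mgll, the lipase of monoglycerides, were the other 2 negative members, each at -0.58. The droplet coat gene Plin2 had -0.30 (SE 0.16, unadjusted p = 0.0773). The positive members were Dgat1, which makes triglyceride (0.29), and Fabp4, a fatty acid carrier (0.88). The list's median interaction was -0.14, beside 0.04 over all genes. Quantile normalization counted 9 negative and 1 positive, and 6 and 2 were counted without NN-TU 21 and 22. The shares of all genes also differ under these settings, and list counts are read against them. They are 6.22% negative and 6.4% positive after quantile normalization, 4.93% negative and 3.83% positive without NN-TU 21 and 22, and 3.94% negative and 10% positive without NN-TU 19.

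Targets of PPARA, the nuclear receptor that turns on fatty acid oxidation, gave 5 negative and 0 positive members of 25. In Pex11a, a peroxisome division gene, the log2 signal was 7.15, 7.77, 8.35 and 8.39 in UN-TU, 8.67, 8.58, 8.71 and 8.68 in UN-Veh, 7.79, 8.13, 8.15 and 7.86 in NN-TU, and 7.28, 7.51, 7.83 and 7.88 in NN-Veh. UN-TU lay below UN-Veh without overlap, and NN-TU overlapped with NN-Veh. The interaction was -1.11 (SE 0.28, unadjusted p = 0.000777). Acot2, a mitochondrial enzyme that frees fatty acids from coenzyme A, had -1.21 (SE 0.39), with 6.59 to 8.74 in UN-TU, 8.57 to 9.11 in UN-Veh, 7.54 to 8.08 in NN-TU and 7.50 to 7.99 in NN-Veh. Angptl4, a secreted inhibitor of lipoprotein lipase, moved mainly on the NN side, with effects of -0.30 in UN and 0.72 in NN and an interaction of -1.02 (SE 0.28). Fgf21, a hormone of fasting made by the liver, had -0.19 in UN, 0.62 in NN and an interaction of -0.81 (SE 0.25). Vnn1, which releases cysteamine from pantetheine, was the remaining member (-0.78). Cpt1a, the gate of mitochondrial fatty acid entry, had -0.07 (SE 0.13). The list's median was -0.17, and 4 negative members were counted without NN-TU 21 and 22 and 10 after quantile normalization.

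NN-Veh stood apart for Sult1e1, the sulfotransferase that inactivates estrogens. Its log2 signal was 3.69, 4.06, 2.98 and 3.37 in UN-TU, 3.57, 3.41, 3.30 and 3.32 in UN-Veh, 3.70, 3.36, 3.45 and 3.12 in NN-TU, and 5.18, 4.75, 5.09 and 6.33 in NN-Veh. Each NN-Veh liver lay above the 12 others, which all lay below the array medians of 4.40 to 4.52. The effect of TUDCA was 0.13 in UN (adjusted p = 0.91) and -1.93 in NN (adjusted p = 0.000793). The interaction was 2.06 (SE 0.35, unadjusted p = 1.02e-05, adjusted p = 0.0517), and 1.94 without NN-TU 21 and 22.

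Of 21 genes that are more abundant in female than in male mouse liver, Sult1e1 included, 4 were positive and 4 negative, against 7.87% and 3.78% of all genes. Without NN-TU 19 only 1 was negative, and 2 were negative without NN-TU 22, NN-Veh 17, UN-TU 27 or UN-Veh 26. There were 3 of each without NN-TU 21 and 22. The positive ones included Atp6v0d2, a subunit of the vacuolar proton pump (0.82, SE 0.26). The negative ones included the cytochrome P450 genes Cyp2b13 (-1.14, SE 0.45), Cyp2b10 (-0.86, SE 0.20) and Cyp2b9 (-0.50, SE 0.20), whose near-identical sequences can share probes. Cyp2b9, the brightest of them, had 10.62, 11.28, 11.26 and 10.99 in UN-TU, 10.88, 11.03, 10.97 and 11.01 in UN-Veh, 11.12, 10.63, 10.57 and 10.67 in NN-TU, and 10.35, 10.36, 9.87 and 10.15 in NN-Veh. The NN-TU livers all lay above NN-Veh, whereas UN-TU and UN-Veh overlapped. Cyp2b10, a dim gene with at most 4.43 in any liver, differed instead on the UN side, with effects of -0.63 in UN (adjusted p = 0.0546) and 0.23 in NN. Nr1i3, the receptor CAR that drives Cyp2b genes, had -0.46 in UN, 0.15 in NN and an interaction of -0.61 (SE 0.17, unadjusted p = 0.00182). Of 23 xenobiotic cytochrome P450 genes and their receptors, 4 were negative and 1 positive. The positive members numbered 5 without NN-TU 19 and 0 without NN-TU 21 and 22, with 4 negative in both cases.

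The responses crossed for Cyp17a1, a steroid hydroxylase that is more abundant in female than in male mouse liver. Its log2 signal was 10.64, 10.30, 10.25 and 9.41 in UN-TU, and 8.40, 9.17, 8.47 and 9.30 in UN-Veh. NN-TU had 10.57, 8.43, 8.41 and 8.53, and NN-Veh had 10.14, 9.98, 10.32 and 10.27. UN-TU lay above UN-Veh, and 3 of 4 NN-TU livers lay below NN-Veh, while NN-TU 19 lay above them. The effect was 1.32 in UN (adjusted p = 0.123) and -1.19 in NN (adjusted p = 0.0996). The interaction was 2.51 (SE 0.50, unadjusted p = 7.57e-05, adjusted p = 0.0789), the largest positive value of all probe sets. Without NN-TU 19, the liver that departed from its group, it was 3.03 with an adjusted p of 0.00025, and without NN-TU 21 and 22 it was 1.99 (unadjusted p = 0.00249).

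Acmsd, the enzyme that draws an intermediate of tryptophan breakdown away from NAD synthesis, had an opposite response too. It had 8.22, 7.31, 6.27 and 6.44 in UN-TU, 6.45, 6.25, 6.08 and 6.19 in UN-Veh, 7.64, 6.75, 6.25 and 6.13 in NN-TU, and 8.48, 7.96, 8.09 and 8.10 in NN-Veh. NN-TU lay below NN-Veh without overlap, and in UN-TU only 27 and 28 lay above the UN-Veh range. The effect in NN was -1.47 (adjusted p = 0.0256), the effect in UN was 0.82 (adjusted p = 0.367), and the interaction was 2.28 (SE 0.46, unadjusted p = 7.78e-05). Slc25a51, which carries NAD into mitochondria, had effects of 0.49 in UN and -0.79 in NN (adjusted p = 0.0217 in NN) and an interaction of 1.28 (SE 0.24, unadjusted p = 3.23e-05).

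Slc3a1, part of the transporter of cystine and basic amino acids, had 10.56, 9.76, 9.06 and 9.00 in UN-TU, 8.43, 8.43, 8.43 and 8.47 in UN-Veh, 9.87, 9.25, 8.81 and 8.60 in NN-TU, and 9.86, 9.79, 9.46 and 9.88 in NN-Veh. UN-TU lay wholly above UN-Veh. The interaction was 1.77 (SE 0.38, unadjusted p = 0.000145). Got1, the cytosolic aspartate aminotransferase, had 10.90, 10.51, 10.52 and 10.33 in UN-TU, 9.83, 10.02, 10.01 and 10.09 in UN-Veh, 10.59, 10.21, 9.69 and 9.66 in NN-TU, and 10.73, 10.51, 10.53 and 10.52 in NN-Veh. UN-TU was above UN-Veh without overlap, 3 of 4 NN-TU livers were below NN-Veh, and the interaction was 1.11 (SE 0.23, unadjusted p = 8.47e-05). Mmd2, a membrane protein of the PAQR family, had an interaction of 1.76 (SE 0.44), and Esm1, a proteoglycan secreted by endothelial cells, had 1.94 (SE 0.43). The microRNA gene Mir467e, named after its values were seen, had 7.34, 7.13, 6.91 and 6.77 in UN-TU, 6.55, 6.60, 6.51 and 6.50 in UN-Veh, 6.75, 6.40, 6.23 and 6.26 in NN-TU, and 7.02, 6.90, 7.05 and 6.89 in NN-Veh. Neither pair of groups overlapped, and the interaction was 1.05 (SE 0.17, unadjusted p = 4.11e-06).

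Opposite responses, in which the UN and the NN effect had opposite signs and each an unadjusted p under 0.05, were found for 153 probe sets (0.604%). In 110 of them (0.434%) TUDCA livers were higher in UN and lower in NN, and in 43 (0.17%) they were lower in UN and higher in NN. This split depended on scaling, since it was 94 and 90 after quantile normalization and 111 and 57 after a shift to a common median. It was 50 and 66 without NN-TU 21 and 22. Effects of the same sign in both were found for 433 probe sets (1.71%).

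Among opposite responses that were lower in UN-TU, the water channel gene Aqp1 had 7.33, 7.27, 7.85 and 7.67 in UN-TU, 7.81, 7.86, 7.80 and 8.01 in UN-Veh, 7.52, 7.78, 7.70 and 7.55 in NN-TU, and 7.07, 7.32, 7.24 and 6.97 in NN-Veh. NN-TU lay above NN-Veh without overlap, and 3 of 4 UN-TU livers lay below UN-Veh. Its effects were -0.34 in UN and 0.49 in NN (adjusted p = 0.043 in NN), and the interaction was -0.83 (SE 0.17, unadjusted p = 7.51e-05). Hspb1, a small heat shock protein, had -0.58 in UN, 0.44 in NN and an interaction of -1.02 (SE 0.21) in its brighter probe set, and 0.12 (SE 0.13) in its dimmer one. Serinc2, of a family that aids the handling of serine in membranes, had -0.66, 0.51 and an interaction of -1.17 (SE 0.29). Jun, an immediate early transcription factor, had -0.44 in UN, 0.44 in NN and an interaction of -0.88 (SE 0.26). Obp2a, a lipocalin, was dim, between 2.64 and 4.26, with an interaction of -1.33 (SE 0.32). Cdh13, the adiponectin-binding cadherin, had -0.89 (SE 0.20), Unc119, a carrier of lipid-modified proteins, had -0.89 (SE 0.24), and Tpbgl had -0.91 (SE 0.22). Plxnb1, a semaphorin receptor, was among those higher in UN-TU, with 1.07 (SE 0.29) in its brighter probe set and 0.20 (SE 0.21) in the other.

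The metallothionein genes Mt1 and Mt2, which encode small proteins that bind zinc and copper and are turned on by metals and by glucocorticoids, lie next to each other and had interactions of the same sign. Their promoters are shown because their values ran in parallel over the livers. Capitals mark the core of the metal response element, searched as TGCACNC and TGCGCNC on both strands, and no match overlaps another. The RefSeq promoters were taken around the annotated start of each gene (GRCm38.p6, plus strand), at chr8:94178839-94179138 for Mt1 and chr8:94172368-94172667 for Mt2. Sites of Mt1 and Mt2 outside these stretches were not searched.
Mt1: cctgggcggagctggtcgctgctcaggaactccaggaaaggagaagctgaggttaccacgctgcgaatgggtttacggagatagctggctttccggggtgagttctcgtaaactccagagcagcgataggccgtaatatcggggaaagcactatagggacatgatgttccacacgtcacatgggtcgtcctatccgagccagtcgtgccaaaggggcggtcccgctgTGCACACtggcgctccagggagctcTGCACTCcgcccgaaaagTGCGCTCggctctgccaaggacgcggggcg
Mt2: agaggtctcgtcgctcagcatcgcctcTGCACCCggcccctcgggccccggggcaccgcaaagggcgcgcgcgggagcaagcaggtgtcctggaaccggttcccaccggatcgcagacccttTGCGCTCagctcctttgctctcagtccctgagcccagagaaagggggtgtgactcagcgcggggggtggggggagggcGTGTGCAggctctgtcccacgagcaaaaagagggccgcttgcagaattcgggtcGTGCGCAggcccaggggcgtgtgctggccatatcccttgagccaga
Mt1 held 3 matches and Mt2 held 4. Of 32851 mouse promoters of the same length, 1.97% held at least 3 matches and 0.517% at least 4. A match describes letters and does not show that a factor binds there.

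Mt2 had a log2 signal of 9.55, 8.0, 7.12 and 7.22 in UN-TU, 6.26, 7.0, 6.59 and 7.84 in UN-Veh, 6.65, 6.05, 7.48 and 6.89 in NN-TU, and 8.46, 8.33, 6.65 and 7.91 in NN-Veh. The groups overlapped on both sides, since UN-Veh 26 was above 2 of the UN-TU livers and NN-Veh 17 was within the NN-TU range. Effects were 1.05 in UN and -1.07 in NN, and the interaction was 2.12 (SE 0.65, unadjusted p = 0.00406, adjusted p = 0.218). Mt1 had 8.83, 7.72, 7.58 and 7.44 in UN-TU, 6.57, 6.77, 6.81 and 7.83 in UN-Veh, 7.27, 6.60, 7.65 and 6.90 in NN-TU, and 8.11, 7.99, 6.77 and 7.83 in NN-Veh. The same 2 livers, UN-Veh 26 and NN-Veh 17, departed from their groups. Its interaction was 1.47 (SE 0.45, unadjusted p = 0.00411). Without NN-TU 21 and 22 both values were larger, at 2.53 for Mt2 and 1.64 for Mt1.

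Both genes belong to a list of 18 glucocorticoid-responsive genes, of which 6 were positive and 1 negative. The other positive members were Sult1e1, the aminotransferase gene Tat (0.74, SE 0.21), Zbtb16, a zinc finger repressor (0.78, SE 0.29), and Nr3c1, the glucocorticoid receptor itself (0.32, SE 0.12), and the negative one was Angptl4. In this list 5 were positive and 1 negative without NN-TU 21 and 22. Igfbp1, an insulin-suppressed binding protein of insulin-like growth factors, had 7.97, 6.80, 7.36 and 7.77 in UN-TU, 6.29, 6.39, 6.18 and 6.45 in UN-Veh, 7.59, 7.28, 7.49 and 6.41 in NN-TU, and 7.21, 7.49, 7.27 and 7.56 in NN-Veh. UN-TU lay wholly above UN-Veh, and the other groups overlapped. It rose by 1.15 in UN (adjusted p = 0.0251), had -0.19 in NN (adjusted p = 0.734), and had an interaction of 1.34 (SE 0.32, unadjusted p = 0.000418). Of 22 genes of glucose production and insulin response, 4 were positive and 1 negative, and 7 and 2 without NN-TU 19. There were 3 and 1 without NN-TU 21 and 22, where the median interaction was 0.06, beside 0.25 with all livers. Ppargc1a, a coactivator of gluconeogenesis and mitochondrial genes, had 0.59 (SE 0.19), Pck1, the first enzyme that commits carbon to glucose, had 0.53 (SE 0.25), and Pcx, which carboxylates pyruvate, had -0.36 (SE 0.12).

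NN-TU stood apart for Scd1, the desaturase that makes monounsaturated fatty acids. It had 11.79, 11.82, 12.07 and 11.95 in UN-TU, 11.99, 12.10, 12.15 and 12.15 in UN-Veh, 11.91, 9.98, 10.82 and 10.57 in NN-TU, and 12.07, 11.79, 12.09 and 12.10 in NN-Veh. NN-TU 20, 21 and 22 lay below the other 13 livers, and NN-TU 19 lay among these. The effect in NN was -1.19 (adjusted p = 0.0148), the effect in UN was -0.19 (adjusted p = 0.844), and the interaction was 1.0 (SE 0.34, unadjusted p = 0.00737). Among 19 genes of fatty acid synthesis Scd1 was the 1 member at an unadjusted p under 0.05, and Fasn, the fatty acid synthase, had -0.15 (SE 0.36).

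Serpina4-ps1, a serpin pseudogene, had 6.21, 5.93, 5.31 and 7.87 in UN-TU, 6.93, 5.24, 6.36 and 5.03 in UN-Veh, 5.75, 9.29, 8.69 and 9.01 in NN-TU, and 4.27, 5.78, 6.09 and 5.04 in NN-Veh. It rose by 2.89 in NN (adjusted p = 0.0256), had 0.44 in UN (adjusted p = 0.874), and had an interaction of -2.45 (SE 0.91, unadjusted p = 0.0137). As in Scd1, NN-TU 19 lay with the vehicle livers and the other 3 NN-TU livers did not. Signals of related serpin genes cannot be told apart where probes are shared. E2f8, a repressor of the cell cycle, had 3.70, 3.65, 4.45 and 5.47 in UN-TU, 4.47, 4.35, 4.14 and 4.68 in UN-Veh, 4.05, 4.95, 6.03 and 6.28 in NN-TU, and 3.79, 4.07, 3.74 and 4.08 in NN-Veh. Here NN-TU 21 and 22 were the highest livers, and the interaction was -1.50 (SE 0.54, unadjusted p = 0.0116) with them and -0.67 (unadjusted p = 0.181) without them. Robo1, a receptor of the Slit guidance proteins, had effects of 0.33 in UN and -0.95 in NN (adjusted p = 0.022 in NN), with an interaction of 1.28 (SE 0.29).

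The urea cycle and amino acid breakdown list had the largest share of positive interactions of the 18 lists described. At an unadjusted p under 0.05, 18 of its 27 measured members were positive and 0 negative, and 26 had a value above 0. The median interaction was 0.36, beside 0.04 over all genes, with a median effect of 0.06 in UN and -0.31 in NN. The mean log2 signal over the list was 10.11 to 10.48 in UN-TU, 10.15 to 10.19 in UN-Veh, 9.76 to 10.36 in NN-TU and 10.33 to 10.52 in NN-Veh. NN-TU 21 and 22, at 9.76 and 9.80, were the lowest of the 16 livers. Without them 5 members were positive and the median was 0.14. Without NN-TU 21 alone 11 were positive, and quantile normalization counted 13.

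Cth, which makes cysteine, had 11.06, 10.90, 10.70 and 10.54 in UN-TU, 10.66, 10.77, 10.72 and 10.60 in UN-Veh, 10.84, 10.65, 10.08 and 10.29 in NN-TU, and 11.17, 10.92, 11.19 and 11.14 in NN-Veh. NN-TU lay below NN-Veh without overlap. It fell by 0.64 in NN (adjusted p = 0.0208), had 0.11 in UN, and had an interaction of 0.76 (SE 0.19, unadjusted p = 0.000865). The 5 members that held without NN-TU 21 and 22 were Acmsd (1.78), Got1 (0.75), Cth (0.48), Tat (0.37) and Kynu (0.34), of which Kynu, like Acmsd, acts in tryptophan breakdown. The urea cycle enzymes Ass1, Arg1, Asl and Cps1 had an unadjusted p under 0.05 with all livers and not without these arrays. Their interactions were 0.93 (SE 0.34) for Ass1, 0.50 (SE 0.19) for Arg1, 0.49 (SE 0.19) for Asl and 0.44 (SE 0.14) for Cps1, and 0.70, 0.20, 0.20 and 0.23 without the arrays. Otc had 0.26 (SE 0.14).

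**Figure D3:**
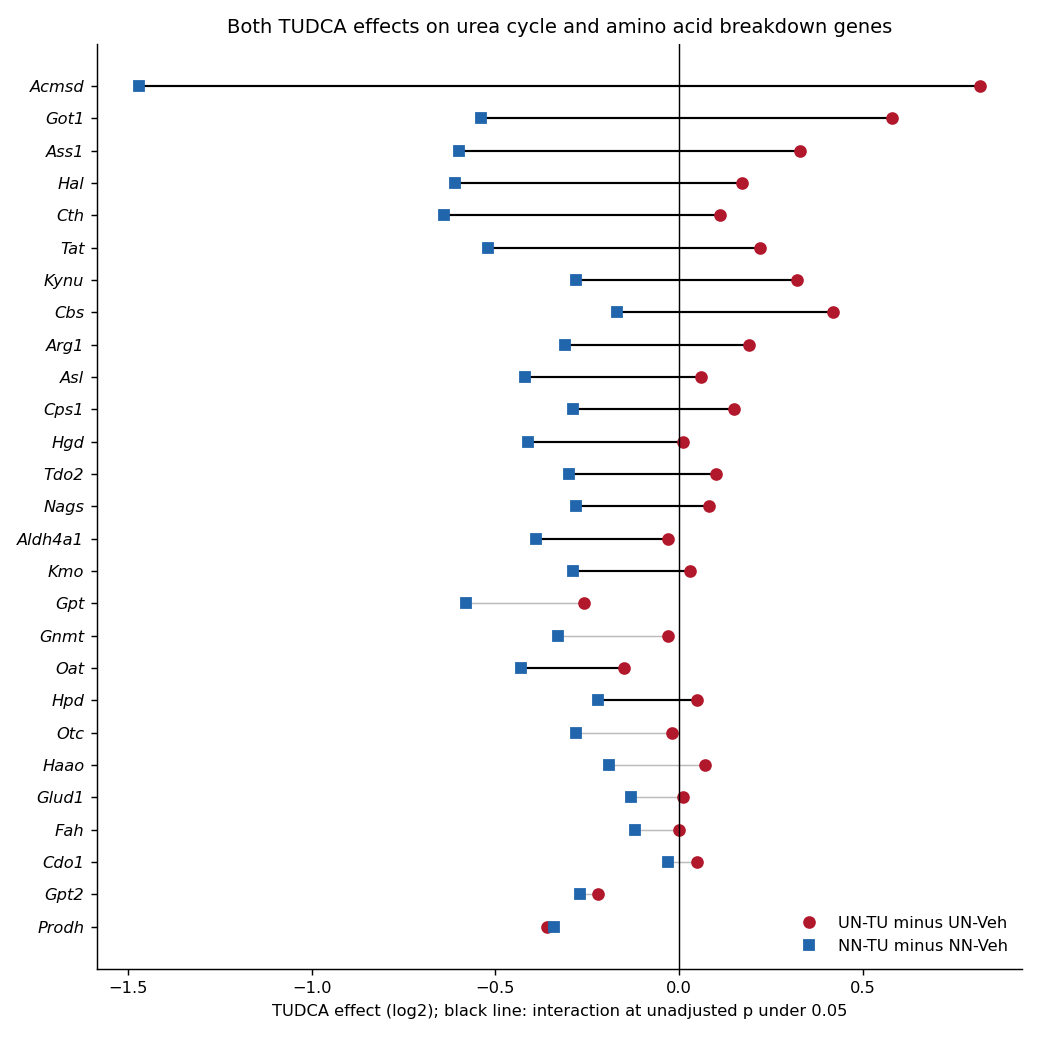
Each row is a gene of the urea cycle or of amino acid breakdown, with the TUDCA effect in UN (red circles, UN-TU minus UN-Veh) and in NN (blue squares, NN-TU minus NN-Veh) on the log2 scale. A black line joins both effects where the interaction had an unadjusted p under 0.05, which held for 18 of 27 genes, from Acmsd (0.82 and -1.47) to Hpd (0.05 and -0.22).

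Of 24 complement and coagulation genes, 7 were positive and 0 negative, with a median interaction of 0.28 and a median effect of 0.11 in UN and -0.11 in NN. Hepatocyte markers also leaned positive, with 3 of 11 positive and 0 negative, as did housekeeping genes, with 3 of 12 positive and 0 negative. Whether the complement and coagulation genes differ from these lists was not tested. F11, a clotting factor, had 9.09, 8.86, 8.79 and 8.49 in UN-TU, 8.12, 8.10, 7.94 and 8.12 in UN-Veh, 8.84, 9.14, 8.58 and 8.40 in NN-TU, and 8.81, 8.50, 8.67 and 8.59 in NN-Veh. UN-Veh lay below every other liver. F11 rose by 0.74 in UN (adjusted p = 0.0176), had 0.09 in NN (adjusted p = 0.798), and had an interaction of 0.64 (SE 0.19, unadjusted p = 0.00339). C8b and C8a, chains of the membrane attack complex, had 0.93 (SE 0.26) and 0.69 (SE 0.22). For C8b the UN-Veh livers, between 8.82 and 9.28, again lay below all others. Without NN-TU 20 alone 14 were positive, and 5 were positive without NN-TU 21, NN-TU 22, NN-Veh 15, UN-TU 27, UN-Veh 24 or UN-Veh 25 alone. The positive members without NN-TU 21 and 22 were F11 (0.40), C8a (0.51) and C8b (0.72).

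Among 27 acute phase genes 7 were positive and 1, Orm3, was negative, so that Orm3 ran against most of its list. Whether the positive share differs from that of hepatocyte markers or housekeeping genes, given above, was not tested. Besides Mt1 and Mt2, the positive members were Il6ra, the interleukin 6 receptor (0.60, SE 0.17), Stat3, which carries its signal (0.51, SE 0.23), Crp (0.45, SE 0.15), the heme carrier Hpx (0.43, SE 0.18) and the fibrinogen chain Fgg (0.36, SE 0.14). There were 3 positive and 1 negative without NN-TU 21 and 22, 11 positive without NN-TU 20 or UN-TU 29, and 4 without UN-TU 27.

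Genes of the endoplasmic reticulum stress response, which TUDCA is given to relieve, had a median interaction of 0.19, and 6 of 29 were positive and 0 negative. Housekeeping genes had the same median of 0.19, with 3 of 12 positive and 0 negative, and hepatocyte markers had 0.15, with 3 of 11 positive and 0 negative. The stress list numbered 11 positive members without UN-TU 29 and 3 without NN-TU 21 or UN-TU 27. Hspa5, the main chaperone of the endoplasmic reticulum, had 9.36, 9.34, 8.90 and 9.13 in UN-TU, 8.98, 9.07, 9.18 and 8.90 in UN-Veh, 9.05, 9.16, 8.80 and 8.70 in NN-TU, and 9.31, 9.10, 9.19 and 9.23 in NN-Veh. All groups overlapped, with effects of 0.15 in UN and -0.28 in NN and an interaction of 0.43 (SE 0.16, unadjusted p = 0.0145). Dnajb9, a partner of Hspa5, had 0.51 (SE 0.20), with an effect of -0.58 in NN (adjusted p = 0.0451). Edem1, which marks misfolded proteins for breakdown, had 0.48 (SE 0.17) in its brighter and -0.22 in its dimmer probe set. Asns, the asparagine synthetase turned on by Atf4, had 0.92 (SE 0.32). Ddit3, a transcription factor of prolonged stress, had 0.18 (SE 0.17). Without NN-TU 21 and 22, 0 of the 29 members had an unadjusted p under 0.05 and the median was 0.06.

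Markers of liver macrophages had a median effect of 0.13 in UN and -0.26 in NN. Of 19 macrophage and Kupffer cell markers 9 were positive in the interaction and 1 negative, with a median of 0.37. Housekeeping genes had a median effect of 0.02 in UN and -0.18 in NN, with 3 of 12 positive in the interaction and 0 negative. Whether the macrophage markers differ from the housekeeping genes was not tested. The number of macrophages and the RNA per macrophage cannot be told apart in bulk liver. The mean log2 signal over the list was 6.29 to 6.38 in UN-TU, 6.09 to 6.47 in UN-Veh, 6.00 to 6.31 in NN-TU and 6.28 to 6.62 in NN-Veh. Adgre1, which encodes the macrophage antigen F4/80, had 7.05, 7.17, 7.20 and 6.99 in UN-TU, 6.42, 7.18, 6.62 and 7.10 in UN-Veh, 6.85, 6.64, 6.29 and 6.75 in NN-TU, and 7.67, 7.16, 7.21 and 7.29 in NN-Veh. NN-TU lay below NN-Veh without overlap. It fell by 0.70 in NN (adjusted p = 0.0256), had 0.27 in UN (adjusted p = 0.568), and had an interaction of 0.97 (SE 0.22, unadjusted p = 0.000267).

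Other markers of the list were smaller, with 0.67 (SE 0.24) for Vsig4, 0.61 (SE 0.21) for Csf1r, 0.50 (SE 0.19) for Clec4f and 0.37 (SE 0.15) for C1qa. Cd68 had 0.37 (SE 0.21, unadjusted p = 0.0912). Cd5l, a protein secreted by macrophages, had 0.75 (SE 0.24). Of the 19 members 12 had a value above 0, and those below 0 included Cd163 (-0.20, SE 0.22) and Itgam (-0.14, SE 0.15). Trem2, a receptor of lipid-associated macrophages, was the member negative at an unadjusted p under 0.05, at -0.31 (SE 0.13). Mpeg1, a pore-forming protein of macrophages named after its values were seen, had 1.27 (SE 0.31), with 8.10 to 8.89 in UN-TU, 8.0 to 8.28 in UN-Veh, 7.27 to 8.72 in NN-TU and 8.60 to 9.09 in NN-Veh. Without NN-TU 21 and 22 only Adgre1 (0.86) remained positive on the list at an unadjusted p under 0.05. Among 16 lymphocyte markers 0 were positive and 3 negative, which were Themis (-0.82, SE 0.27), Cd3d (-0.50) and Cd3e (-0.45), the last 2 being chains of the T cell receptor complex. Of 19 stellate cell and matrix markers 0 had an unadjusted p under 0.05.

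Interferon-stimulated genes followed the macrophage markers in direction, with 8 positive and 1 negative of 24 and a median of 0.29. Rsad2, an antiviral enzyme, had 7.42, 7.29, 6.69 and 6.79 in UN-TU, 6.61, 6.79, 6.64 and 6.75 in UN-Veh, 7.15, 6.73, 6.69 and 5.91 in NN-TU, and 7.31, 7.33, 6.93 and 7.18 in NN-Veh. The groups overlapped on both sides, and the interaction was 0.91 (SE 0.27, unadjusted p = 0.00334). Mx2 had 1.03 (SE 0.30), Ifit1 0.84 (SE 0.28), Cmpk2 0.77 (SE 0.26) and Isg15 0.70 (SE 0.24). Ifi27l2b was the negative member at -0.71 (SE 0.33). Only 3 were positive without NN-TU 21 and 22. The part that macrophage RNA has in the interferon values was not tested.

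**Figure D4:**
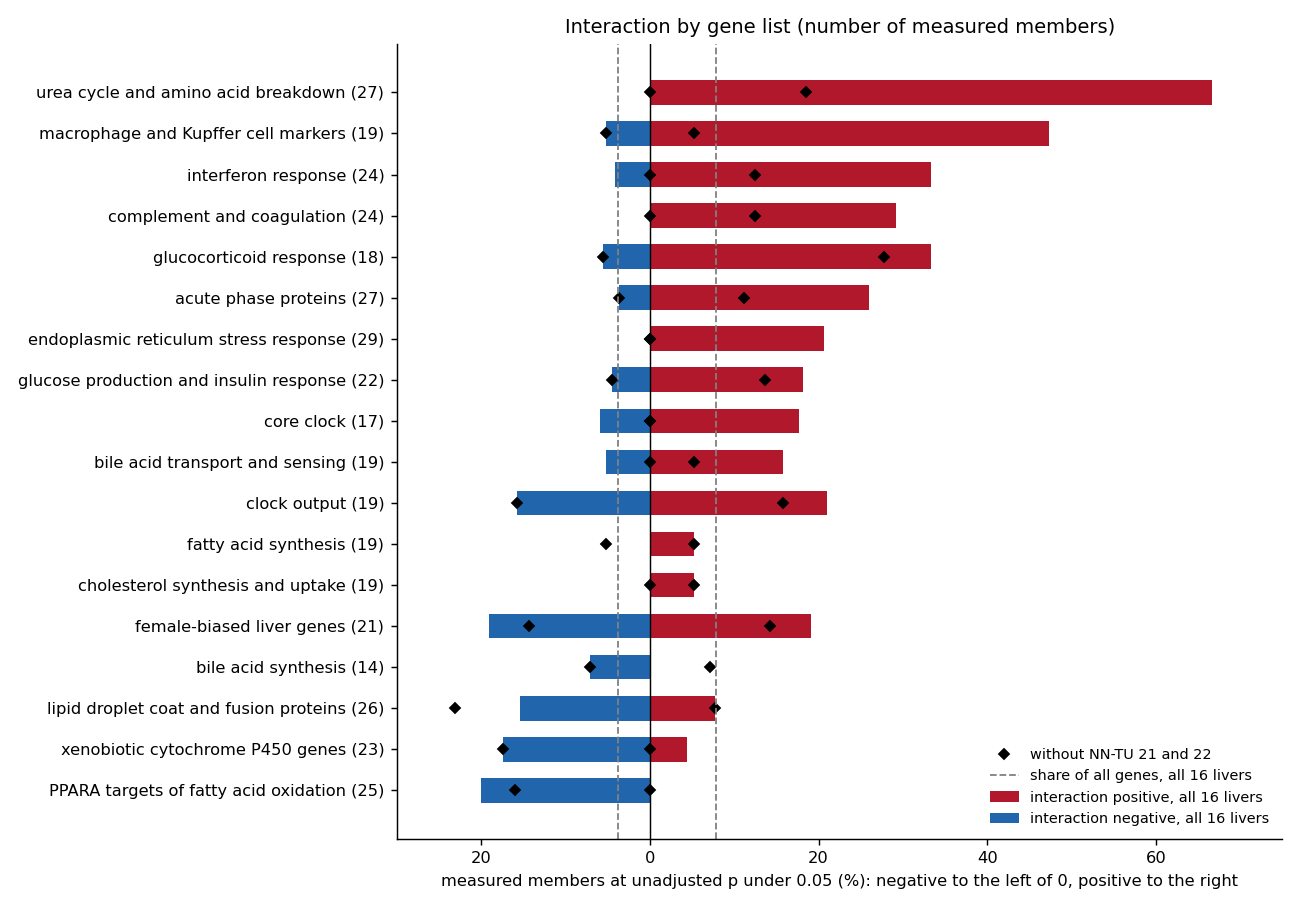
Bars give the percentage of measured members of each of 18 gene lists with an interaction at an unadjusted p under 0.05, positive to the right and negative to the left, and dashed lines give the shares of all genes (7.87% and 3.78%). Diamonds are the same percentages without NN-TU 21 and 22, which bring the amino acid list from 18 of 27 members to 5.

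Clock genes differed between individual livers. Rgs16, a regulator of G protein signals that follows feeding and the clock in liver, had the largest negative interaction of all probe sets, at -3.25 (SE 0.95, unadjusted p = 0.00268). It had 5.23, 6.07, 9.03 and 8.49 in UN-TU, 8.09, 9.25, 9.34 and 10.07 in UN-Veh, 7.19, 7.07, 8.45 and 9.49 in NN-TU, and 5.71, 7.0, 7.24 and 7.18 in NN-Veh. UN-TU 27 and 28 were low and 29 and 30 were within the UN-Veh range, so that the group mean describes no single liver. The Rgs16 interaction was -2.33 (unadjusted p = 0.0403, limma) without NN-TU 21 and 22. Noct, a clock-controlled phosphatase, had 6.88, 6.80, 5.07 and 5.24 in UN-TU, 5.70, 5.41, 5.71 and 5.74 in UN-Veh, 6.18, 5.61, 5.20 and 5.20 in NN-TU, and 7.38, 6.51, 6.51 and 7.01 in NN-Veh. The same pairs of UN-TU livers separated, and NN-TU lay below NN-Veh. Its interaction was 1.66 (SE 0.47, unadjusted p = 0.0019).

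Arntl, the clock activator BMAL1, had 8.0, 7.19, 6.89 and 7.25 in UN-TU, 6.53, 6.17, 6.64 and 5.60 in UN-Veh, 7.32, 7.53, 6.83 and 5.98 in NN-TU, and 6.64, 6.50, 6.78 and 7.01 in NN-Veh. UN-TU lay above UN-Veh, and the interaction was 0.92 (SE 0.39, unadjusted p = 0.0305), or 0.41 (unadjusted p = 0.269) without NN-TU 21 and 22. Of 17 core clock genes 3 were positive and 1 negative, and 0 of either without these arrays. Of 19 clock output genes 4 were positive and 3 negative, among them the transferrin receptor gene Tfrc (1.30, SE 0.39). Dbp, an output factor that peaks in the day, had -0.72 (SE 0.48, unadjusted p = 0.148). The hour at which each liver was taken is not given, and its part in these values was not tested.

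The responses shared by both groups gave the contrast to the genes above. Cyp7a1, the first enzyme of bile acid synthesis from cholesterol, had 5.54, 6.18, 6.58 and 6.93 in UN-TU, 9.44, 9.05, 9.12 and 8.98 in UN-Veh, 5.08, 5.51, 6.70 and 6.95 in NN-TU, and 9.60, 9.69, 9.93 and 9.07 in NN-Veh. Both TUDCA groups lay far below both vehicle groups and overlapped with each other. It fell by 2.84 in UN and by 3.51 in NN, and the interaction was 0.67 (SE 0.46, unadjusted p = 0.162). Without NN-TU 21 and 22, however, it was 1.44 (unadjusted p = 0.00147). Cyp27a1, the mitochondrial enzyme of the alternative pathway, was the 1 member of 14 bile acid synthesis genes at an unadjusted p under 0.05 (-0.51, SE 0.21).

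Sqle, a rate-controlling enzyme of cholesterol synthesis, had 8.46, 8.30, 8.95 and 8.92 in UN-TU, 6.71, 7.53, 6.92 and 6.40 in UN-Veh, 8.24, 8.50, 8.34 and 7.88 in NN-TU, and 5.59, 5.83, 6.56 and 6.20 in NN-Veh. It rose by 1.77 in UN and by 2.19 in NN, with an interaction of -0.43 (SE 0.31, unadjusted p = 0.187). Of 19 genes of cholesterol synthesis and uptake 17 were higher at an unadjusted p under 0.05 in UN-TU and 16 in NN-TU, against 4.86% and 3.84% of all genes. In the interaction 1 was positive, the sterol isomerase gene Ebp (0.54, SE 0.15), and 0 were negative. Of 19 genes of bile acid transport and sensing 3 were positive, which were the sterol exporters Abcg5 (0.50, SE 0.20) and Abcg8 (0.50, SE 0.21) and the uptake carrier Slco1a4 (0.63, SE 0.25). The main uptake carrier Slc10a1 was negative (-0.31, SE 0.14). Of these only Slco1a4 (0.55) had an unadjusted p under 0.05 without NN-TU 21 and 22, where Abcg5 had 0.36 (unadjusted p = 0.118), Abcg8 had 0.37 (unadjusted p = 0.151) and Slc10a1 had -0.31 (unadjusted p = 0.0755). Abcb11, the exporter of bile salts, had 0.29 (SE 0.16), and Nr0b2, the repressor induced by the bile acid receptor, had 0.21 (SE 0.30).

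**Figure D5:**
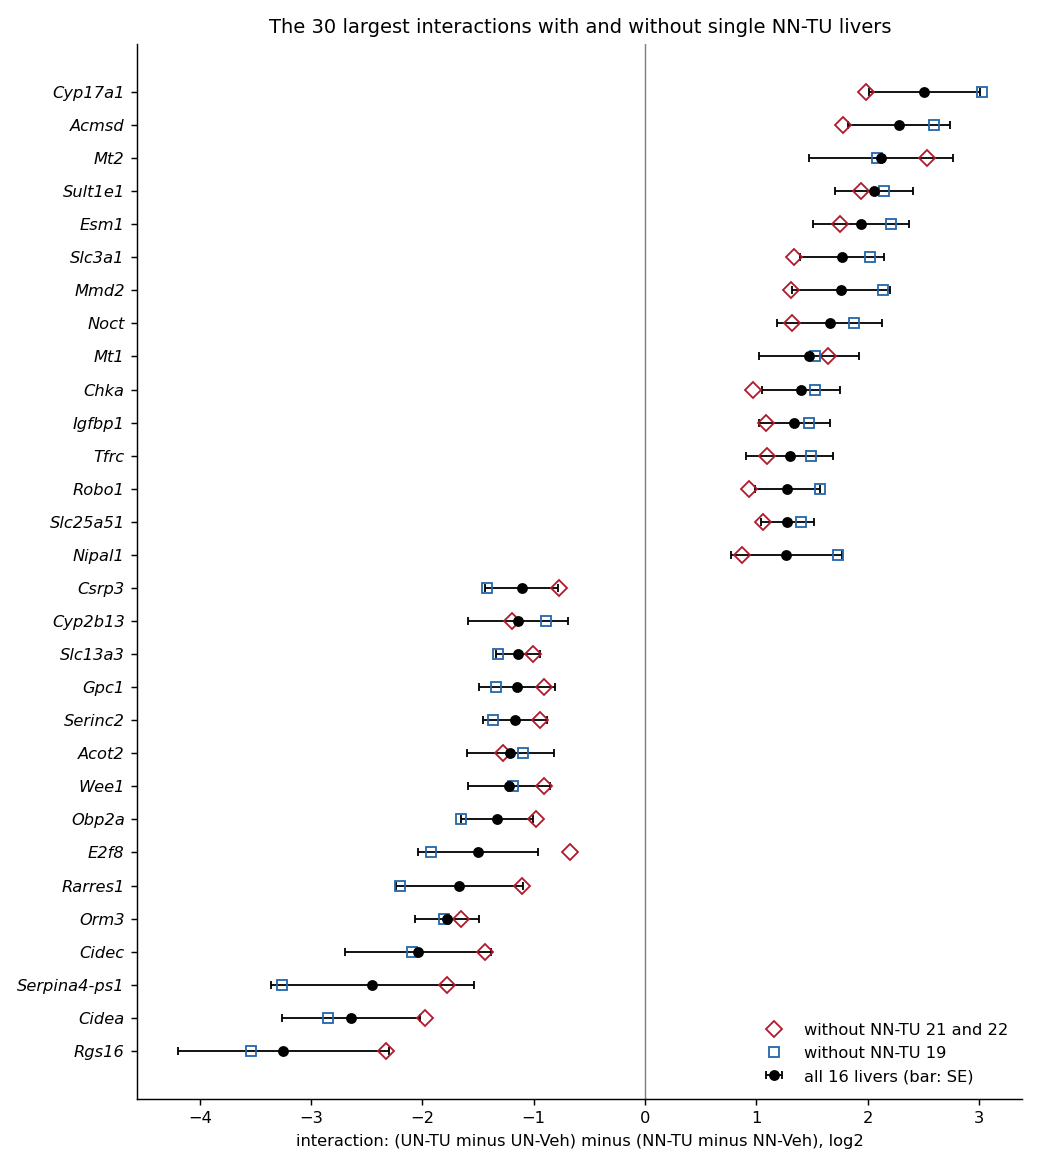
The 30 largest interactions (log2) are shown with their SE in black for all 16 livers, with red diamonds for the value without NN-TU 21 and 22 and blue squares for the value without NN-TU 19. The red diamonds mostly lie nearer to 0 and the blue squares mostly farther from it, as for Cyp17a1 (2.51 with all livers, 1.99 and 3.03).

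Of the 30 genes with the largest interactions, 16 had an adjusted p under 0.05 without NN-TU 19, and 5 had an unadjusted p of 0.05 or more without NN-TU 21 and 22 (Cidec, Rarres1, E2f8, Serpina4-ps1 and Nipal1). Among the fits without 1 array, the fit without NN-TU 19 gave the most probe sets at an adjusted p under 0.05 (104). This liver stood apart in its group for Cyp17a1, Mmd2, Nipal1, Csrp3 and Serpina4-ps1, and leaving it out narrows the spread there. The 16 adjusted p-values are therefore not independent support. Nipal1, a magnesium transporter, had 1.27 (SE 0.50) with all livers and 0.87 without NN-TU 21 and 22. Chka, the choline kinase that starts phosphatidylcholine synthesis, had 1.40 (SE 0.35) in its brighter probe set and -0.46 (SE 0.17) in its dimmer one. Dimmer probe sets of some genes also differed from the brighter ones. The glutamine synthetase gene Glul had -1.41 (SE 0.29) at a mean log2 signal of 4.44 and -0.59 (SE 0.21) at 10.81. Dimmer probe sets named for Atp5d, Gabarap and Rps9 had -1.02, -1.34 and -1.20, whereas the brighter ones had -0.05, 0.14 and 0.06. Which of the probe sets follows the transcript in these genes was not tested.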

How the data were processed

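Liver RNA of individual mice was hybridised to Affymetrix MoGene 2.1 ST arrays. The authors processed the arrays in Affymetrix Expression Console and deposited log2 signals per probe set, and the summarization method and the version are not given in the sources used here. Of 41345 probe sets, 25341 were named by a gene (23521 by 1 symbol, 1820 by several) and tested. The 4 groups of 22 weeks (16 arrays, 4 per group) were fitted with limma 3.58.1 (R 4.3.3) as cell means, with Benjamini-Hochberg adjustment over the 25341 probe sets and no further normalization. Figures and summaries used Python 3.11.15, numpy 2.4.6, pandas 2.3.3 and matplotlib 3.10.9. The number of arrays limits the precision. The test was tried on simulated data.

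A gene was represented by its brightest probe set in lists. The text names the 15 largest interactions in each direction past a fold of 2 and an unadjusted p under 0.05, 8 opposite responses in each direction, up to 4 members of each list described, defining members, and Cidea and Cidec, which the study examined. Glul, Mpeg1, Scd1, Mir467e and list members given only as examples were named after their values were seen. Of 33 gene lists, 18 are described with some cell type markers. Members and lists were chosen with earlier results of these data known. The results were recomputed with the ANOVA that the methods name, and with Tukey biweight averages that kept the p-values of this ANOVA. They were also recomputed with a trend and robust estimation of the variances, with array weights, and over all 30 arrays. Further fits took every probe set or only those above the median signal, followed quantile normalization or a shift to 1 median, or left out each array. Promoters came from RefSeq (GRCm38.p6).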

Additional observations from a re-analysis of the deposited data

Results flagged for a closer look

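For 95 named genes the 4 livers of each group were searched for 1 liver whose gap to the nearest of the others took up an unusually large part of the group's range. Of 380 groups of 4 livers, 26 stood out in this way, and chance alone gives about 1 in 20. NN-TU 19 and NN-Veh 15 each accounted for 5 of the 26, and NN-TU 20 and UN-Veh 26 for 3 each. Values below are log2 signals.

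In UN-TU the highest liver stood apart for Nfil3 (UN-TU 27 at 7.26, the others at 6.34 to 6.48, gap 0.843 of the range). In UN-TU the lowest liver stood apart for Nr0b2 (UN-TU 30 at 6.56, the others at 7.07 to 7.12, gap 0.900 of the range) and Themis (UN-TU 27 at 3.20, the others at 3.91 to 4.04, gap 0.849 of the range). In UN-Veh the highest liver stood apart for C8b (UN-Veh 23 at 9.28, the others at 8.82 to 8.88, gap 0.871 of the range), Slc13a3 (UN-Veh 26 at 7.11, the others at 6.75 to 6.78, gap 0.903 of the range) and Slc3a1 (UN-Veh 26 at 8.47, the others at 8.43 to 8.43, gap 0.906 of the range). In UN-Veh the lowest liver stood apart for Cidea (UN-Veh 26 at 7.17, the others at 7.94 to 8.04, gap 0.885 of the range), F11 (UN-Veh 25 at 7.94, the others at 8.10 to 8.12, gap 0.865 of the range) and Noct (UN-Veh 24 at 5.41, the others at 5.70 to 5.74, gap 0.881 of the range).

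In NN-TU the highest liver stood apart for Abcg5 (NN-TU 20 at 8.96, the others at 8.35 to 8.44, gap 0.853 of the range), Abcg8 (NN-TU 20 at 9.02, the others at 8.52 to 8.58, gap 0.864 of the range), Cyp17a1 (NN-TU 19 at 10.57, the others at 8.41 to 8.53, gap 0.942 of the range), Mmd2 (NN-TU 19 at 8.68, the others at 7.04 to 7.26, gap 0.871 of the range), Nipal1 (NN-TU 19 at 6.80, the others at 4.87 to 5.10, gap 0.882 of the range) and Orm2 (NN-TU 20 at 7.63, the others at 6.89 to 6.99, gap 0.861 of the range). In NN-TU the lowest liver stood apart for Csrp3 (NN-TU 19 at 5.10, the others at 6.27 to 6.46, gap 0.858 of the range) and Serpina4-ps1 (NN-TU 19 at 5.75, the others at 8.69 to 9.29, gap 0.830 of the range). In NN-Veh the highest liver stood apart for Clec4f (NN-Veh 15 at 8.68, the others at 8.24 to 8.28, gap 0.890 of the range), Csf1r (NN-Veh 15 at 8.70, the others at 8.18 to 8.21, gap 0.937 of the range), Got1 (NN-Veh 15 at 10.73, the others at 10.51 to 10.53, gap 0.881 of the range), Nipal1 (NN-Veh 18 at 6.55, the others at 5.99 to 6.05, gap 0.903 of the range), Slc10a1 (NN-Veh 17 at 10.97, the others at 10.71 to 10.75, gap 0.857 of the range) and Tfrc (NN-Veh 15 at 7.62, the others at 6.33 to 6.43, gap 0.923 of the range). In NN-Veh the lowest liver stood apart for Angptl4 (NN-Veh 18 at 6.69, the others at 7.21 to 7.31, gap 0.841 of the range), Rgs16 (NN-Veh 15 at 5.71, the others at 7.0 to 7.24, gap 0.839 of the range) and Scd1 (NN-Veh 16 at 11.79, the others at 12.07 to 12.10, gap 0.887 of the range).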

How the results depend on the processing

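At an adjusted p under 0.05 the count of interactions was 0 in the fit described, with 3009 at an unadjusted p under 0.05. It was 0 with all probe sets and after repeated quantile normalization, and 1 with all 30 arrays in 1 fit. It was 2 with array weights, with the ANOVA of the methods and with a variance trend and robust estimation. It was 3 in the brighter part of the probe sets and 9 after a shift to a common median. The setting with Tukey biweight averages changed only the averages and kept the p-values of the ANOVA. Its count of 2 therefore had to equal that of the ANOVA and adds nothing to it. Leaving out each array in turn gave 0 to 104 (104 without NN-TU 19, 12 without UN-TU 29, 10 without UN-TU 30, and 3 without NN-Veh 18 or UN-Veh 23). Leaving out NN-TU 21 and 22 together, chosen after seeing the data, gave 1. The 67 probe sets past a fold of 2 became 312 with all probe sets of the table, and 56 to 104 without each array. The 153 opposite responses became 242 with all probe sets, 21 with all 30 arrays, and 115 to 235 without each array. The whole table holds 41345 probe sets, against 25341 in the fit described, and 66 of the 312 were among the 67. The cause of these changes was not tested. Of 778 values of the 30 largest interactions, 757 kept their direction and side of an unadjusted p of 0.05, 21 lost it and 0 reversed. The 30 were chosen by size and unadjusted p in these same arrays, which favours such agreement. The count therefore does not test whether they would recur in other livers.

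No paired analysis was possible because the labels number the animals 15 to 30 and no number is shared between groups. The litter, the array strip and the hour of sampling are not given. With 4 livers per group, interactions of small size could not be separated from the spread between livers, and probe sets below the array medians of 4.40 to 4.52 give differences of uncertain size.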

Other observations

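Among all genes 7.87% had a positive and 3.78% a negative interaction at an unadjusted p under 0.05, and the counts here are read against these shares. Genes of apolipoproteins and lipoprotein assembly gave 3 negative and 0 positive of 21 members, which were the apolipoprotein genes Apoa4 (-0.89) and Apoa5 (-0.60) and the carboxylesterase gene Ces1g (-0.48). Without NN-TU 19 there were 3 negative and 3 positive, and without NN-TU 21 and 22 there were 4 and 0. Among 23 conjugating transferases 6 were positive and 1 negative, among them Sult1e1 (2.06) and Gstm3 (-0.70), and 2 were positive and 1 negative without NN-TU 21 and 22. Of 21 genes that are more abundant in male liver 4 were positive and 2 negative, among them Elovl3 (0.80), an elongase of very long fatty acids, and Serpina12 (-0.73), which encodes vaspin. There were 3 and 0 without NN-TU 21 and 22, and 7 positive without NN-TU 20. Of 29 genes of the mitochondrial respiratory chain 1 was positive and 0 negative. The iron hormone gene Hamp had an interaction of -2.36 with an unadjusted p of 0.0577.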
